A study of Mus musculus with 9 samples.

Results

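The genes described here are the 44 genes by which a cell folds, modifies, checks and secretes proteins at the endoplasmic reticulum (ER). They were taken by symbol from a list whose rule uses no measured value, though the list was drawn up with earlier results of these data known, and all 44 were found among the 31053 genes counted. Bone marrow was flushed from the femurs of 9 female mice aged 9 to 10 weeks and sequenced as single cells, with 1 library for each mouse. The groups compared, of 3 mice each, were NZB, NZW, and NZBWF1, the offspring of NZW females and NZB males. NZBWF1 mice develop a lupus-like disease with age and were sampled before it was overt. No group carried a transgene or received a drug as a treatment. All mice were kept in metabolic cages for urine collection before they were killed with isoflurane and cervical dislocation. The mice came from 1 supplier in 1 delivery, red cells were lysed before capture, and no cell type was sorted.

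Proteins that leave a cell enter the ER through the Sec61 channel, lose their signal peptide, receive sugars from the oligosaccharyltransferase, and are folded and joined by disulfide bonds with the help of luminal chaperones. Proteins that fail are drawn back to the cytosol and degraded, and a shortage of chaperones switches on the unfolded protein response through the sensors encoded by *Ern1* and *Atf6*. Plasma cells, which secrete antibody, depend on this response and on its transcription factor *Xbp1*, and plasmacytoid dendritic cells (pDC), which release interferon, have a well-developed ER as well. By role, the 44 genes comprise 2 for antibody assembly, 5 regulators of the unfolded protein response, 15 luminal chaperones and folding enzymes, 10 of the translocon and signal peptidase, 4 of the oligosaccharyltransferase, and 8 of degradation.

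The response acts on its target genes through the ER stress response element, ERSE, spelled CCAAT, 9 bases of any kind and CCACG, and a shorter form, ERSE-II, spelled ATTGG, 1 base of any kind and CCACG. Both end in the same letters, and each was searched on both strands of the promoters listed by RefSeq for GRCm38.p6, from 250 bases before to 50 bases after the start. Of the 44 genes, 35 were matched in that table. ERSE was found in 39 of 32851 promoters (0.119%), and 9 of the 35 genes had it: *Calr*, *Canx*, *Creld2*, *Derl3*, *Dnajc3*, *Hsp90b1*, *Hspa5*, *Pdia6* and *Syvn1*. ERSE-II was found in 12 promoters (0.0365%), among them those of *Dnajb11* and *Herpud1*. Another element, UPRE, spelled TGACGTGG, was found in 222 promoters (0.676%) and in 0 of the 35. A match is a run of letters and does not show that a factor binds there. Windows of 7 genes that recur in the comparisons are shown because they hold an element, 5′ to 3′ on the strand of the gene, with the fixed letters of the element in capitals. Where the element lies on the other strand, it reads CGTGG first and ATTGG after it.
Hspa5, chr2:34771995-34772073, plus strand: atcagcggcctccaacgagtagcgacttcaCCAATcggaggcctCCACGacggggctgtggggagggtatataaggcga
Hsp90b1, chr10:86705503-86705686, minus strand: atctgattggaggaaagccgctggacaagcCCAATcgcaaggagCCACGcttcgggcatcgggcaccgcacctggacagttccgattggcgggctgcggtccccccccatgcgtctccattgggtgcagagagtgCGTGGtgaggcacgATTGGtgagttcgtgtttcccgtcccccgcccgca
Calr, chr8:84847045-84847123, minus strand: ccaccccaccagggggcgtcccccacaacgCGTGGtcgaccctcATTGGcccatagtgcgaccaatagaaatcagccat
Creld2, chr15:88819490-88819568, plus strand: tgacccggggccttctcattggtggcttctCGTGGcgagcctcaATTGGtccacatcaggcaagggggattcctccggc
Derl3, chr10:75893212-75893290, plus strand: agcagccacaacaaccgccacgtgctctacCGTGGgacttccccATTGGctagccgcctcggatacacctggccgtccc
Pdia6, chr12:17266461-17266539, plus strand: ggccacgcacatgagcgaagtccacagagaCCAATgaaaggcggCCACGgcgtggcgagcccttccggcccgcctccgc
Herpud1, chr8:94386347-94386417, plus strand: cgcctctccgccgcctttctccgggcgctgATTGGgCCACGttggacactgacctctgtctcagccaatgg
*Hsp90b1* held 2 elements in its window, 1 on each strand, and the other 6 windows held 1 each.

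Of 68444 barcodes, 37593 cells passed the quality limits and the removal of doublets, between 2407 and 5426 in a mouse, with a median of 2182.5 to 2536.5 unique molecular identifiers (UMIs) per cell. Cells were placed in classes by marker genes that include none of the 44 and, for plasma cells, also by a share of immunoglobulin of at least 10% of the UMIs of a cell, and 15 classes were tested, each with at least 10 cells in at least 6 mice. The names stand for sets of RNA markers, since no protein was measured. Plasma cells numbered 280, with a median of 9849.5 UMIs, and pDC 2102, with a median of 1705 UMIs. Plasma cells came from 8 mice: the 3 NZB mice gave 17, 49 and 41, the 3 NZBWF1 mice gave 15, 46 and 90, and NZW replicates 2 and 3 gave 10 each. NZW replicate 1 had 2 plasma cells and was left out of this class. All 280 lay in 1 cluster of 315 cells built without the 44 genes, but 18 of them held only 1 of the 6 plasma cell markers. Of the 2102 pDC, 1443 lay in the cluster of 1653 cells that holds most of them, and 674 held 3 of the 8 pDC markers, the fewest the gate allows. In all, 557 barcode sequences occurred in more than 1 library. Free RNA, the RNA that enters droplets from broken cells, was estimated at 0.63% to 4.76% of the UMIs of a cell, with NZW replicates 2 and 3 the highest.

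Plasma cells gave more of their RNA to these genes than any other class tested. The 44 genes held 7.44% ± 0.594 of all UMIs in plasma cells (mean ± SD, n = 8 mice), with a range of 6.80% to 8.68%. The next classes were granulocyte-monocyte precursors (GMP) with 1.44% ± 0.264 (n = 9) and basophils or mast cells with 1.35% ± 0.260 (n = 7). In pDC the share was 1.01% ± 0.0579 (n = 9), in mature B cells 0.612% ± 0.117, and in mature neutrophils, the lowest class, 0.166% ± 0.0158. The mice of plasma cells did not overlap those of any other class. Cells thinned to 1000 UMIs gave 7.60% in plasma cells and 1.02% in pDC, with the same order of these 2 classes. Levels of single genes are given in CPM, the UMIs of the gene as a part of all UMIs of the class in a mouse, scaled to the same total for each. Most of the plasma cell share was *Jchain*, the chain that joins antibody units into larger forms. Without *Jchain* the share was 2.01% ± 0.694 in plasma cells, 1.43% in GMP, and 1.01% in pDC.

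These shares depend on what they are divided by. Immunoglobulin genes took 62.1% ± 7.59 of the UMIs of plasma cells (range 44.3% to 69.1%) and 2.39% of those of mature B cells, and the gate of plasma cells itself asks for immunoglobulin. Per UMI other than immunoglobulin, the 44 genes held 19.9% ± 1.94 in plasma cells, or 5.21% without *Jchain*, against 1.01% in pDC. Per all UMIs, plasma cells were the highest class for 21 of the 44 genes, and per UMI other than immunoglobulin for 41. The 3 exceptions were *P4hb*, a disulfide isomerase, at rank 4, *Canx*, encoding the membrane chaperone calnexin, at rank 3, and *Ddit3*, encoding the stress-induced factor CHOP, at rank 7.

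**Figure D1:**
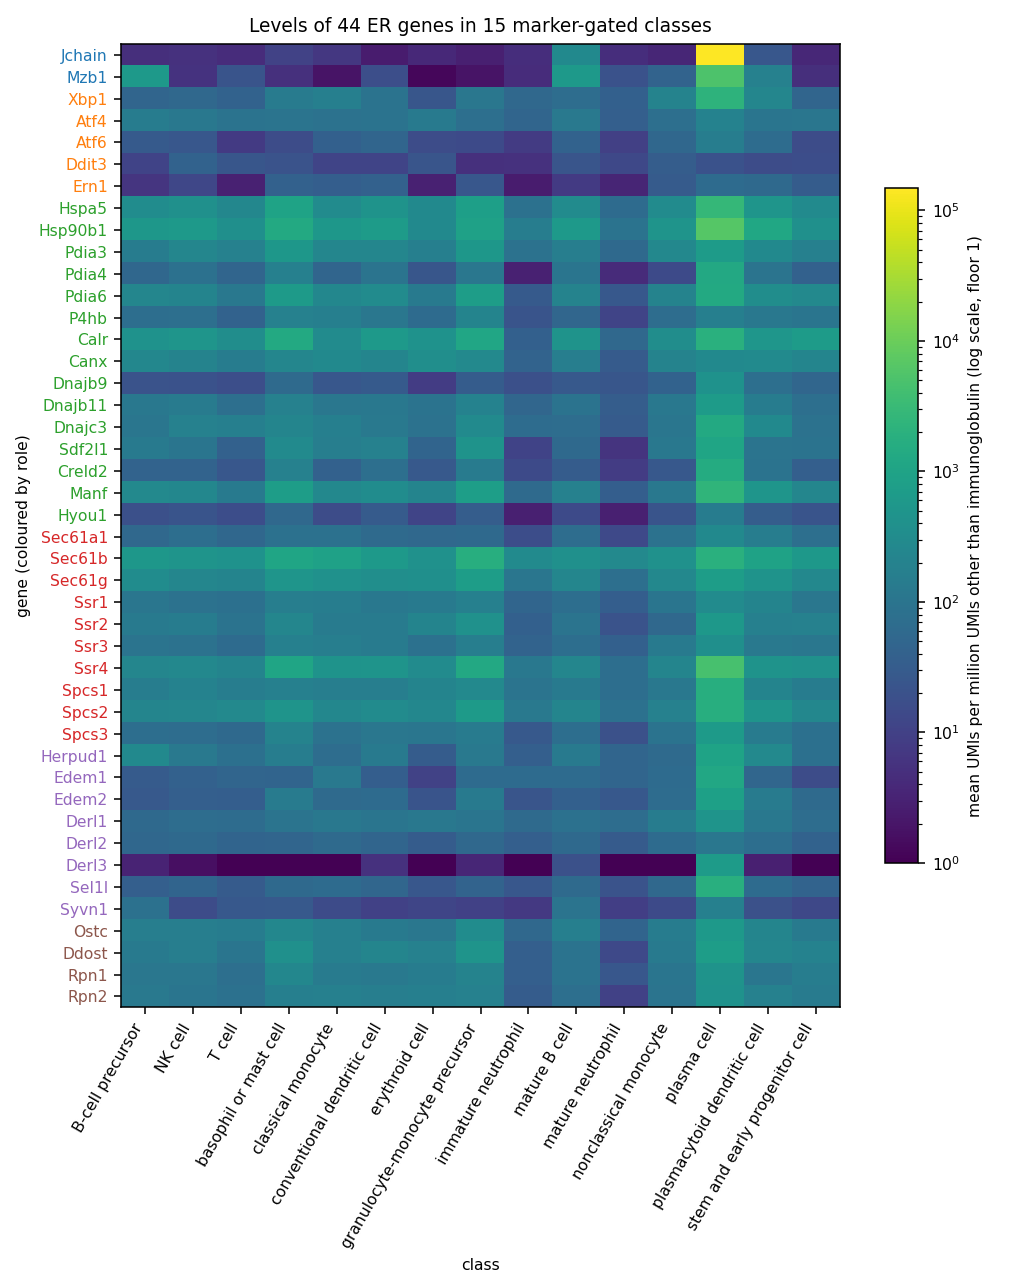
Mean level of each of the 44 genes (rows, coloured by role) in each of the 15 classes (columns), in CPM of the UMIs other than immunoglobulin, on a logarithmic colour scale with a floor of 1. The plasma cell column is the brightest for 41 of the 44 rows, while *Mzb1* is bright in both classes of B lineage and *Derl3* is near the floor in most others.

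Both genes of antibody assembly marked plasma cells in each mouse. *Jchain* stood at 54543, 56184 and 53835 CPM in the NZB mice, at 50236 and 53967 in the NZW mice, and at 56802, 56391 and 52215 in the NZBWF1 mice. *Mzb1*, encoding an ER cochaperone of B-lineage cells, stood at 1914, 1714 and 1505 CPM in NZB, 4561 and 1690 in NZW, and 2375, 1599 and 1302 in NZBWF1. *Jchain* varied little between mice, and for *Mzb1* the library of NZW replicate 2, with 10 plasma cells, stood apart. *Jchain* was found in 280 of 280 plasma cells, at 18 to 1343 UMIs and a median of 510. It was found in 3.66% of erythroid cells, a class of similar depth (median 9238 UMIs) that does not make it, and in 2.14% of pDC. With every cell thinned to 1000 UMIs, which left out 0 cells, *Jchain* was found in 1.33% of pDC (exact 95% binomial interval 0.887% to 1.92%, counting error only) and in 0.371% of erythroid cells (0.149% to 0.764%). *Mzb1* had a UMI in 99.3% of plasma cells, 74.8% of B-cell precursors, 38.1% of mature B cells and 20.3% of pDC, against 1.17% of erythroid cells, and after thinning in 74.3%, 47.4%, 29.6% and 13.7%, against 0.159%.

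The regulators of the unfolded protein response were unlike each other in plasma cells. *Xbp1* stood at 473, 557 and 787 CPM in NZB, 1144 and 879 in NZW, and 1018, 990.4 and 742 in NZBWF1. *Atf4*, encoding a factor of amino acid and stress responses, stood at 54.2, 49.1 and 115 CPM in NZB, 84.1 and 86.9 in NZW, and 54.7, 81.4 and 58.7 in NZBWF1. *Ern1*, encoding the sensor that splices *Xbp1* RNA, stood at 31.0, 17.3 and 29.9 CPM in NZB, 33.7 and 19.3 in NZW, and 21.9, 15.8 and 22.4 in NZBWF1. Per all UMIs, *Xbp1* was the 1 regulator of the 5 for which plasma cells were the highest class, while per UMI other than immunoglobulin they were highest for each of the 5 except *Ddit3*. *Ddit3* was at 7.75, 5.77 and 0 CPM in NZB, 0 and 9.66 in NZW, and 0, 13.6 and 17.7 in NZBWF1. These *Ddit3* levels rest on 29 UMIs in all plasma cells together.

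Chaperones of the ER lumen were high in plasma cells with 1 library apart from the rest. *Hspa5*, encoding BiP, the main ER chaperone, stood at 1317, 845 and 842 CPM in NZB, 1700 and 705 in NZW, and 843, 1214 and 1145 in NZBWF1. *Hsp90b1*, encoding GRP94, stood at 2092, 2187 and 2230 CPM in NZB, 8213 and 850.0 in NZW, and 1953, 1786 and 1968 in NZBWF1. *Calr*, encoding calreticulin, stood at 689.6, 709.8 and 708 CPM in NZB, 1464 and 396 in NZW, and 657, 624 and 622 in NZBWF1. For both *Hsp90b1* and *Calr* the highest and the lowest mouse were the 2 NZW mice, each with 10 plasma cells. *Derl3*, a member of the derlin family that acts in degradation, stood at 333, 231 and 194 CPM in NZB, 404 and 164 in NZW, and 290.0, 262 and 238 in NZBWF1.

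**Figure D2:**
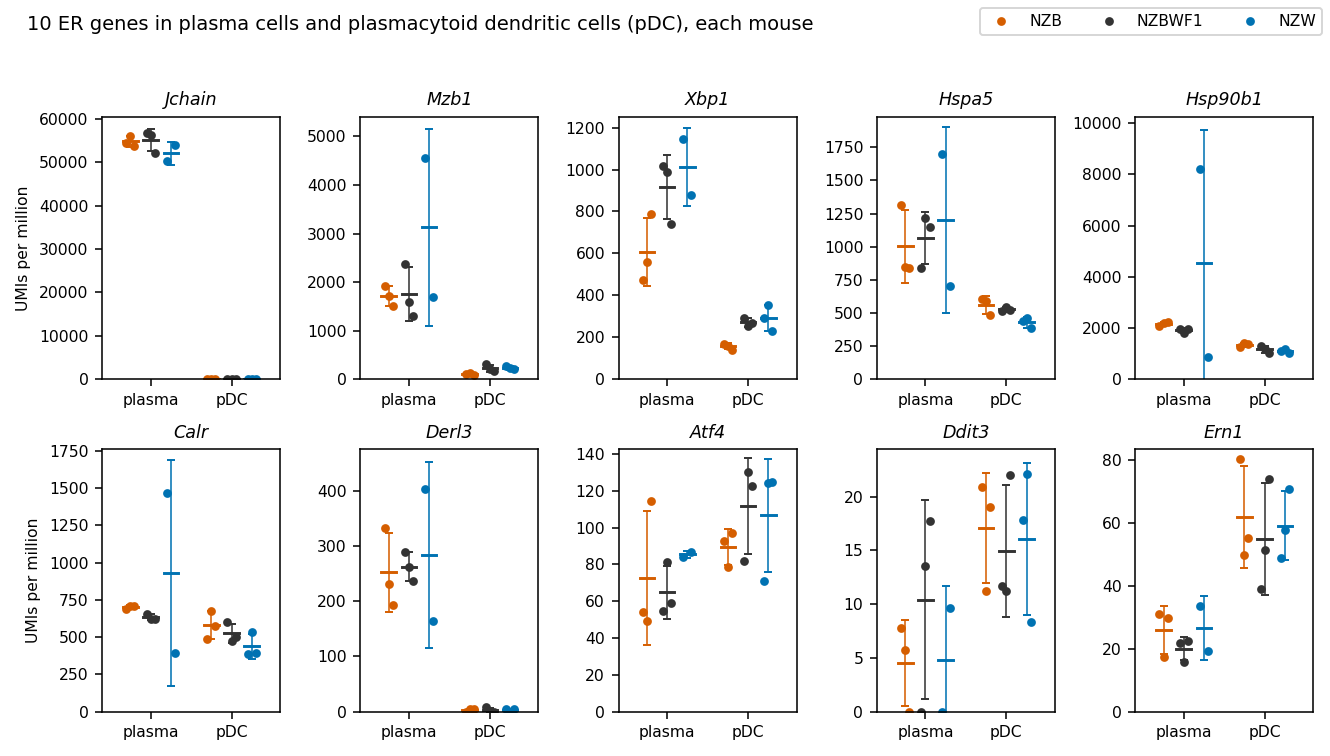
Level in CPM (linear axes) of 10 genes in plasma cells and pDC, with 1 point for each mouse, a bar for the mean of the strain, and error bars of 1 SD, cut at 0 where they pass it. *Jchain*, *Mzb1*, *Xbp1* and *Derl3* are higher in plasma cells in every mouse, *Ern1* is higher in pDC, and NZW replicate 2 stands apart for *Mzb1*, *Hsp90b1* and *Calr* in plasma cells.

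All 44 genes were higher in plasma cells than in the mean of the other 14 classes, where 40.5% of 8759 genes tested differed, 19.8% higher and 20.7% lower (edgeR quasi-likelihood test with Benjamini-Hochberg adjustment, threshold 0.05). The median log2 difference of the 44 was 2.88, against -0.20 for all genes. The 10 largest log2 differences were those of *Jchain* (14.76 ± 0.20, SE), *Derl3* (9.42 ± 0.17), *Mzb1* (8.26 ± 0.14), *Sel1l* (5.49 ± 0.09), *Creld2* (5.29 ± 0.12), *Xbp1* (5.03 ± 0.09), *Pdia4* (4.95 ± 0.09), *Edem1* (4.90 ± 0.09), *Edem2* (4.17 ± 0.10) and *Dnajb9* (3.99 ± 0.14). *Derl3* had 0 UMIs in T cells, in nonclassical monocytes and in basophils or mast cells, and *Jchain* had 1 UMI in conventional dendritic cells. The sizes and SEs of these genes thus depend on values near the floor in other classes. Adjusted p-values of the 10 genes by edgeR ran from 1.9e-114 for *Sel1l* to 5.0e-58 for *Dnajb9*. The smallest differences were 0.77 ± 0.11 for *Canx* (edgeR, adjusted p = 1.9e-09) and 1.03 ± 0.36 for *Ddit3* (adjusted p = 0.015).

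Degradation had the largest median of the 5 larger roles. Its 8 genes had a median log2 difference of 3.87 and included the *Sel1l* adaptor of the ubiquitin ligase, the mannose-trimming factors *Edem1* and *Edem2*, and *Derl3*, while *Derl2* was the smallest at 1.16. The 15 chaperones had a median of 3.23, from *Canx* to *Creld2*, and the 5 regulators a median of 2.49, from *Ddit3* to *Xbp1*. The 10 genes of the translocon and signal peptidase had a median of 2.31 (1.55 to 3.95), led by *Ssr4* of the translocon-associated complex. The 4 genes of the oligosaccharyltransferase lay close together, at 2.11 to 2.51.

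The scaling bears on the smaller of these differences. The main test scales libraries by TMM, which sets most genes level between classes, so that a class filled with immunoglobulin is in effect read per remaining RNA. With UMI totals and no scaling factor, the median of all genes was -1.84 and that of the 44 genes was 1.34, with 36 genes higher, 5 lower and 3 not called. The 5 lower ones were *Atf4* (-0.34), *P4hb* (-0.41), *Derl2* (-0.51), *Ddit3* (-0.66) and *Canx* (-0.86). *Jchain*, *Derl3*, *Mzb1*, *Sel1l*, *Creld2* and *Xbp1* were higher under both scalings. The share of all genes called with no scaling factor is not given, here or below. Counts of members under that scaling therefore cannot be set against all genes.

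**Figure D3:**
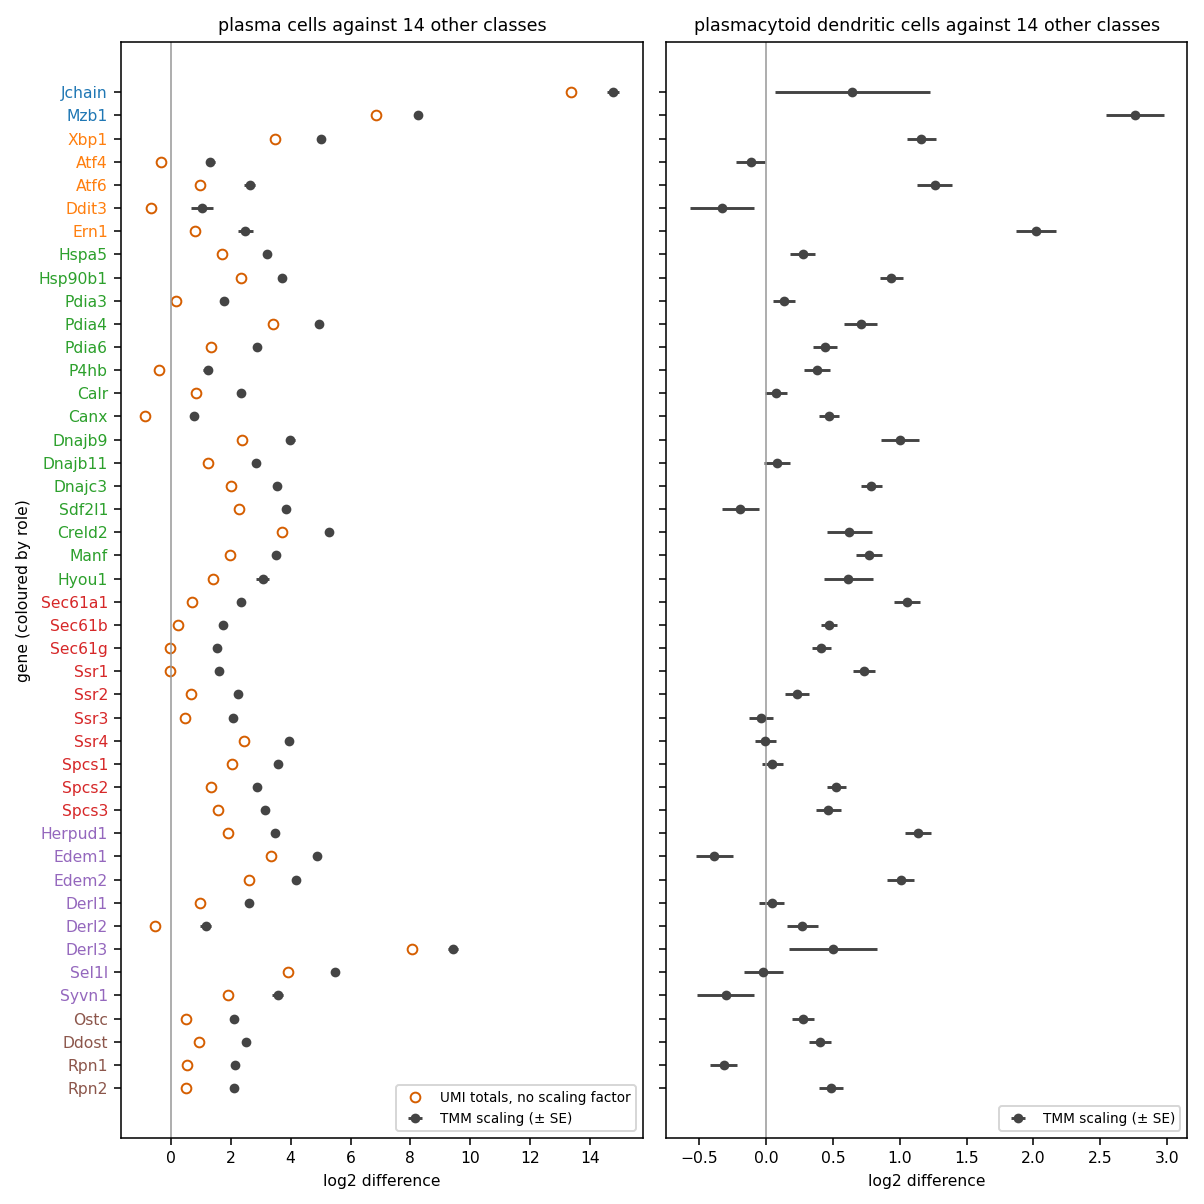
Log2 difference of each of the 44 genes (rows, coloured by role) between plasma cells (left) or pDC (right) and the mean of the other 14 classes, with filled points for TMM scaling with SE bars and, on the left, open points for UMI totals with no scaling factor. All 44 filled points on the left lie above 0 and 5 open points are called below it, while the pDC differences run from -0.39 to 2.76.

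Against mature B cells, the class of the same lineage that does not secrete antibody, 43 of the 44 genes were higher in plasma cells and 0 lower (43.7% of all genes tested differed, 17.0% higher and 26.7% lower). The median log2 difference was 3.20, against -0.33 for all genes. The exception was *Ddit3* (0.76 ± 0.40, edgeR, adjusted p = 0.12). The 10 largest were *Jchain* (10.28 ± 0.46), *Creld2* (5.84 ± 0.21), *Derl3* (5.55 ± 0.20), *Xbp1* (5.27 ± 0.16), *Sel1l* (5.16 ± 0.14), *Edem2* (4.80 ± 0.15), *Ssr4* (4.58 ± 0.11), *Sdf2l1* (4.45 ± 0.18), *Dnajc3* (4.40 ± 0.12) and *Edem1* (4.36 ± 0.13). *Mzb1* differed by 3.38 ± 0.19, and its level in mature B cells was 333 to 936 CPM. *Jchain* in mature B cells was at 2042 CPM in NZBWF1 replicate 2, 312 in NZB replicate 1, and at most 50.8 in the other 7 mice. With no scaling factor, 37 genes were higher and 5 lower, without a share of all genes to set beside them.

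In pDC the regulators *Xbp1* and *Ern1* and the cochaperone gene *Mzb1* were higher than in the mean of the other classes. *Xbp1* stood at 169, 159 and 141 CPM in NZB, 294, 355 and 229 in NZW, and 292, 253 and 266 in NZBWF1. *Mzb1* stood at 103, 116 and 89.5 CPM in NZB, 267, 226 and 199.7 in NZW, and 308, 204 and 161 in NZBWF1. For both genes the NZB mice were the lowest 3 of the 9. *Ern1* stood at 80.2, 49.8 and 55.2 CPM in NZB, 49.0, 57.6 and 70.7 in NZW, and 38.9, 51.5 and 74.0 in NZBWF1, above all plasma cell values per all UMIs.

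*Hspa5* in pDC stood at 602, 589.7 and 482 CPM in NZB, 441, 461 and 383 in NZW, and 514, 547 and 519.5 in NZBWF1. *Hsp90b1* stood at 1242, 1419 and 1359 CPM in NZB, 1090, 1161 and 1003 in NZW, and 1293, 1179 and 1030 in NZBWF1. *Calr* stood at 488, 675 and 577 CPM in NZB, 387, 536 and 395 in NZW, and 599.6, 475 and 499 in NZBWF1. For *Hspa5* and *Hsp90b1* each NZB mouse was above each NZW mouse, and for *Calr* the ranges overlapped.

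*Atf4* in pDC stood at 92.4, 78.7 and 97.1 CPM in NZB, 71.2, 124 and 125 in NZW, and 81.8, 130.0 and 123 in NZBWF1. *Ddit3* ran from 8.32 to 22.2 CPM, with a median of 17.8. *Jchain* ran from 3.81 to 95.7, with a median of 15.6, and its highest value was in NZW replicate 3. *Derl3* had at most 7.79 CPM and was listed at 0 in 4 of the 9 mice.

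Against the other 14 classes, 28 of the 44 genes were higher in pDC and 2 lower, where 51.8% of all genes tested differed, 34.2% higher and 17.5% lower. The median log2 difference was 0.45, against 0.09 for all genes. The 10 largest called were *Mzb1* (2.76 ± 0.22), *Ern1* (2.02 ± 0.15), *Atf6* (1.26 ± 0.13), *Xbp1* (1.16 ± 0.11), *Herpud1* (1.14 ± 0.09), *Sec61a1* (1.06 ± 0.10), *Edem2* (1.01 ± 0.10), *Dnajb9* (1.0 ± 0.14), *Hsp90b1* (0.94 ± 0.09) and *Dnajc3* (0.79 ± 0.08). Of the 5 regulators, 3 were thus among the first 4, while *Atf4* (-0.12 ± 0.11) and *Ddit3* (-0.33 ± 0.24) did not pass. The lower genes were *Edem1* (-0.39 ± 0.14, edgeR, adjusted p = 0.013) and *Rpn1* (-0.32 ± 0.10, adjusted p = 0.0050). Neither passed with no scaling factor, under which 37 genes were higher and 0 lower and *Rpn1* turned to 0.04. The median of all genes then rose to 0.45, and the share of all genes called is not given.

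Against conventional dendritic cells, the other dendritic class tested, 16 of the 44 genes were higher in pDC and 0 lower, where 18.4% of all genes differed, 10.8% higher and 7.64% lower. The largest called were *Mzb1* (3.33 ± 0.65), *Xbp1* (1.47 ± 0.29), *Dnajb9* (1.42 ± 0.43), *Sec61a1* (1.40 ± 0.27), *Dnajc3* (1.34 ± 0.20), *Edem2* (1.21 ± 0.27), *Herpud1* (1.14 ± 0.23), *Hsp90b1* (0.99 ± 0.17), *Ssr1* (0.95 ± 0.20) and *Ostc* (0.88 ± 0.20). *Ern1* differed by 0.73 ± 0.35 and was not called (edgeR, adjusted p = 0.14). Conventional dendritic cells numbered 174 in all and came from 6 mice in this test. They held a median of 2 of their own markers, 2 of classical monocytes and 1 of pDC.

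Between plasma cells and pDC themselves, 42 of the 44 genes were higher in plasma cells (46.1% of all genes differed, 17.8% higher and 28.3% lower). The largest were *Jchain* (13.17 ± 0.53), *Derl3* (8.32 ± 0.25), *Sel1l* (5.15 ± 0.13), *Mzb1* (5.13 ± 0.21), *Edem1* (4.93 ± 0.13), *Creld2* (4.35 ± 0.17), *Pdia4* (3.96 ± 0.13), *Sdf2l1* (3.78 ± 0.16), *Ssr4* (3.69 ± 0.10) and *Xbp1* (3.61 ± 0.13). *Derl3* had a mean of 2.78 CPM in pDC, so its size depends on values near the floor. *Ern1* (0.44 ± 0.23, edgeR, adjusted p = 0.12) and *Canx* (0.28 ± 0.13, adjusted p = 0.064) did not pass. With no scaling factor, 26 genes were higher and 12 lower, and the median of the 44 fell from 2.29 to 0.49. The share of all genes called under that scaling is not given.

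The other genes of the pathway were read from a list of 83 genes with the roles given above other than antibody assembly, or with export to the Golgi, and of 18 chaperones of the cytosol and mitochondria, which fold proteins outside the ER. The 83, called ER genes here, include stress regulators, among them *Asns*, which encodes an enzyme of the cytosol. Of the 75 ER genes tested, 62 were higher in plasma cells than in the other classes and 1 lower, where 19.8% of all genes were higher and 20.7% lower. All 16 genes of export to the Golgi that were tested were higher. Of the 16 chaperones outside the ER that were tested, 0 were higher and 11 lower under TMM. The largest called were those of *Fkbp11*, a prolyl isomerase (6.88 ± 0.18), *Txndc5*, a disulfide isomerase (6.65 ± 0.09), and *Prdx4*, an ER peroxidase (5.74 ± 0.12). The largest called in the other direction, over both lists, were *Hsp90aa1* (-1.43 ± 0.16), *Cnpy3* (-1.10 ± 0.33) and *Hspd1* (-1.06 ± 0.21). In pDC against the other classes, 39 of the 75 were higher and 7 lower, where 34.2% of all genes were higher and 17.5% lower, led by *Pdia5* (3.86 ± 0.30), *Sec24d* of vesicle export (3.81 ± 0.17) and *Creb3l2* (2.02 ± 0.23). The lowest called there, over both lists, were *Ero1l* (-1.09 ± 0.19), *Txndc12* (-0.87 ± 0.20) and *Hspd1* (-0.74 ± 0.12). Against mature B cells 63 of the 75 were higher in plasma cells and 1 lower (17.0% and 26.7% of all genes), led by *Prdx4* (5.52 ± 0.18), *Fkbp11* (5.37 ± 0.23) and *Fkbp2* (4.40 ± 0.13), with *Hsp90aa1* (-1.25 ± 0.19), *Cnpy3* (-0.98 ± 0.36) and *Hspd1* (-0.97 ± 0.23) the lowest called over both lists. Against pDC 61 were higher in plasma cells and 3 lower (17.8% and 28.3% of all genes), led by *Fkbp11* (7.06 ± 0.26), *Asns* (5.90 ± 0.43) and *Prdx4* (4.85 ± 0.16), with *Pdia5* (-3.99 ± 0.82), *Cnpy3* (-2.15 ± 0.31) and *Mbtps2* (-1.53 ± 0.46) the lowest called over both lists. For *Asns* the difference of pDC from the other classes (-3.09) had no usable SE. Between pDC and conventional dendritic cells 23 were higher in pDC and 1 lower (10.8% and 7.64% of all genes), led by *Tram2* (5.78 ± 1.92), *Creb3l2* (2.38 ± 0.68) and *Mbtps2* (2.28 ± 0.64), with *Prdx4* (-1.20 ± 0.30), *Hspa8* (-0.60 ± 0.11) and *Tcp1* (-0.60 ± 0.18) the lowest called over both lists.

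Between strains, the luminal chaperones *Hspa5*, *Calr* and *Hsp90b1* were higher in NZB than in NZW mice in classical monocytes and GMP. Summed over the 15 classes there were 482 tests of a member in a class. NZB against NZW gave 63 calls higher in NZB and 10 lower, over 33 of the 44 genes and 9 classes, which is 15.1% of these tests against 9.12% of the tests of all genes. NZBWF1 against NZB gave 4 higher and 37 lower, or 8.51% against 4.24%. NZBWF1 against NZW gave 2 higher and 0 lower, or 0.415% against 1.12%, and NZBWF1 against the mean of its parents gave 2 higher and 3 lower, or 1.04% against 0.651%. These contrasts share mice, so their counts are not independent of each other.

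Classical monocytes held the most calls. In NZB against NZW, 26 of the 42 genes tested were higher and 2 lower, where 23.7% of all genes tested differed, 12.4% higher and 11.3% lower. The median log2 difference was 0.51, against -0.01 for all genes. The chaperones led: 14 of 15 were higher with a median of 0.97, as were all 4 genes of the oligosaccharyltransferase, with a median of 0.53. In the translocon 5 of 10 and in degradation 2 of 7 were higher. Of the 5 regulators, 0 were higher and 2 lower. The remaining call was *Jchain*, higher by 2.18, the largest difference, though 1.85% of monocytes held a UMI of it. In the barcodes of free RNA *Jchain* stood at 297 to 996 CPM in NZB and 127 to 374 in NZW.

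In monocytes *Hspa5* stood at 456, 503 and 421 CPM in NZB, 199.7, 194 and 213 in NZW, and 239, 261 and 334 in NZBWF1, and differed by 1.20 ± 0.11 between the parents (edgeR, adjusted p = 9.1e-11). *Calr* stood at 408, 483 and 479 CPM in NZB, 155, 226 and 220.5 in NZW, and 270.2, 253 and 293 in NZBWF1, a difference of 1.20 ± 0.11 between the parents. *Hsp90b1* stood at 691, 784 and 778 CPM in NZB, 393, 402 and 397 in NZW, and 548, 439 and 496 in NZBWF1, a difference of 0.93 ± 0.10. In each of the 3 genes, NZB was above NZBWF1 and NZBWF1 above NZW in every mouse. The others among the 10 of smallest p were *Pdia3* (1.03 ± 0.10), *Pdia6* (0.97 ± 0.10), *Manf* (1.07 ± 0.11), *Sdf2l1* (1.03 ± 0.12), *Dnajb11* (0.97 ± 0.12), *Ssr2* (0.85 ± 0.11) and *Creld2* (1.46 ± 0.19). *Ern1* (-0.63 ± 0.22) was called lower as well, with overlap between the NZB and NZW mice. *Xbp1* went the other way, at 113, 149 and 139.6 CPM in NZB, 198, 178 and 234 in NZW, and 162, 167 and 165 in NZBWF1 (-0.57 ± 0.12, edgeR, adjusted p = 0.0003).

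The chaperones led in GMP too. Cells of this class held a median of 5 of their own markers, 2 of immature neutrophils and 0 of classical monocytes. In NZB against NZW, 16 of 39 genes were higher and 1 lower, where 8.71% of all genes differed, 3.67% higher and 5.04% lower. *Creld2* stood at 210.4, 301 and 239 CPM in NZB, 70.0, 86.8 and 54.2 in NZW, and 129.9, 87.2 and 87.3 in NZBWF1 (1.71 ± 0.17, edgeR, adjusted p = 7.1e-11). *Manf*, encoding a secreted factor that binds BiP, stood at 1179, 1285 and 1119 CPM in NZB, 539, 562 and 428 in NZW, and 625, 686 and 804 in NZBWF1 (1.08 ± 0.13). The NZB mice were apart from all others in both genes. *Hsp90b1* (0.95 ± 0.12), *Hspa5* (0.94 ± 0.13), *Sdf2l1* (1.02 ± 0.15), *Pdia4* (1.02 ± 0.16), *Calr* (0.76 ± 0.12), *Pdia3* (0.71 ± 0.12), *Pdia6* (0.64 ± 0.12) and *Dnajc3* (0.67 ± 0.14) made up the rest of the 10 of smallest p. *Xbp1* was the lower one (-1.02 ± 0.21).

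**Figure D4:**
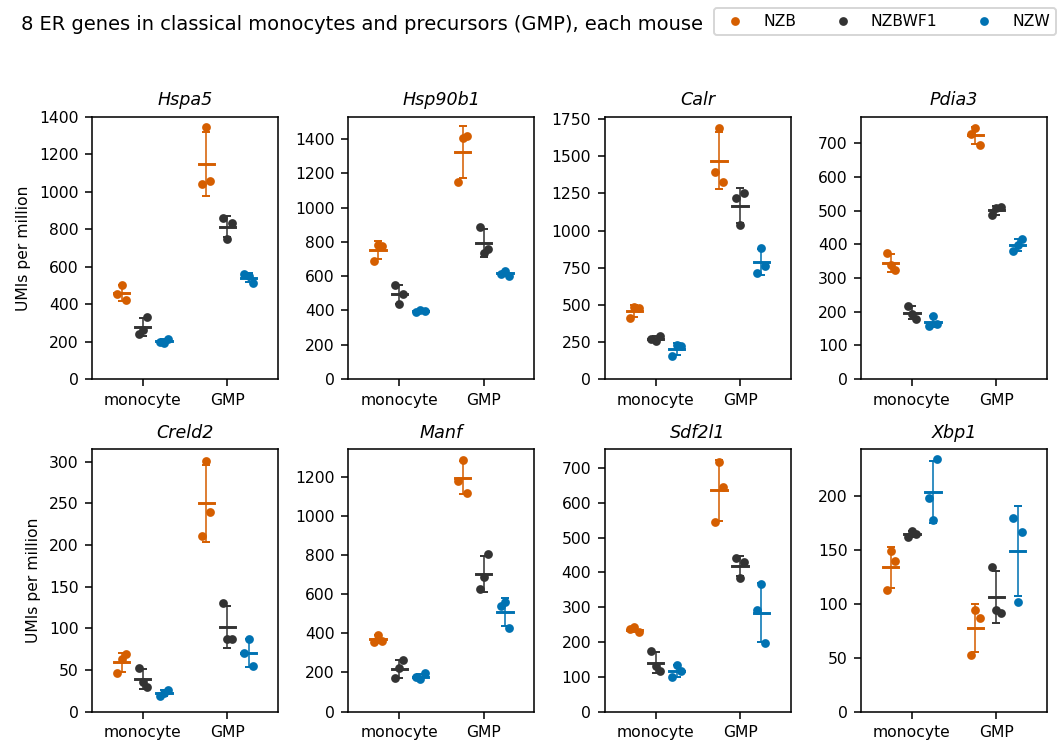
Level in CPM (linear axes) of 8 genes in classical monocytes and GMP, with 1 point for each mouse, a bar for the mean of the strain, and error bars of 1 SD (n = 3 mice per strain). The 7 chaperones are highest in NZB and lowest in NZW with NZBWF1 between them on average, and *Xbp1* has the reverse order of the parents.

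The make-up of these classes differed between strains as well. Cells with UMIs of at least 2 of 10 genes of cell division made up 57.8% to 76.0% of the monocytes in NZB mice, 35.7% to 36.5% in NZW, and 30.3% to 37.5% in NZBWF1. A gate gene of GMP was found in 71.1% to 84.8% of NZB monocytes and in 36.0% to 42.4% of those of the other strains. The median UMIs of a monocyte were 2860 to 3480 in NZB and 1746.5 to 2505.5 in the others, and the clusters differed. Clusters 21 and 28 held 42.6% and 44.8% of the NZB monocytes, and clusters 37 and 36 held 50.5% and 36.9% of those of NZW and 49.5% and 32.5% of those of NZBWF1. Read in dividing monocytes only, 16 of 40 genes were higher in NZB and 1 lower, where 13.5% of all genes differed. With dividing cells and cells with a GMP gene both left out, which left 36, 38 and 64 monocytes in the NZB mice, 15 of 40 were higher and 0 lower, where 6.69% of all genes differed, with *Hspa5* at 1.55 ± 0.24, *Calr* at 1.46 ± 0.19 and *Pdia3* at 1.24 ± 0.19. *Xbp1* was called in the dividing cells (-0.59 ± 0.14) and not in the others.

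In GMP, dividing cells made up 83.4% to 88.9% in NZB and 47.7% to 77.4% in the other strains. In dividing GMP, 16 of 38 genes were higher in NZB and 1 lower, where 8.26% of all genes differed, and with dividing cells left out, which left 8 cells in NZB replicate 1, too few to enter, 8 of 34 were higher and 0 lower, where 3.11% of all genes differed. Those 8 were *Creld2* (2.05 ± 0.30), *Hsp90b1* (1.11 ± 0.17), *Hspa5* (1.01 ± 0.18), *Manf* (1.10 ± 0.20), *Sdf2l1* (1.20 ± 0.24), *Pdia4* (1.10 ± 0.31), *Calr* (0.68 ± 0.18) and *Pdia3* (0.70 ± 0.19). The part that the stage of these cells plays in the whole difference was not tested beyond these subsets.

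Other pathway genes were called in NZB monocytes too: 25 of the 74 ER genes tested were higher and 1 lower, *Cnpy3* (-0.75 ± 0.12), and 13 of 17 chaperones outside the ER were higher, where 12.4% of all genes were higher and 11.3% lower. The smallest p-values were those of *Kdelr2*, a retrieval receptor (0.81 ± 0.12), *Hsph1* (2.0 ± 0.24) and *Hspd1* (0.72 ± 0.11), the last 2 not of the ER. In GMP, 5 of 66 ER genes were higher and 1 lower, a share near the 8.71% of all genes that differed, and 11 of 16 chaperones outside the ER were higher, led by *Hsp90aa1* (1.0 ± 0.13), *Hspd1* (1.0 ± 0.14) and *Hspe1* (0.87 ± 0.14). Chaperones outside the ER were thus called beside those of the ER in both classes.

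Set beside the promoters, the 11 members with ERSE or ERSE-II had a median log2 difference of 0.95 between NZB and NZW monocytes, with 8 of 10 tested higher, and the 24 with a promoter and neither element had 0.40, with 14 of 24 higher. In GMP the medians were 0.75 (8 of 9 higher) and 0.22 (5 of 22 higher). In plasma cells against the other classes they were 3.48 and 2.5, with all members higher in both groups. In pDC against the other classes they were 0.47 (7 of 11 higher) and 0.39 (13 of 24 higher). The 9 members with no promoter in the table had medians of 0.31 (4 of 8 higher) in monocytes, 0.49 (3 of 8 higher) in GMP, 2.63 in plasma cells and 0.61 (8 of 9 higher) in pDC. These are descriptions of small groups of genes and were not tested. Every member with an element was a luminal chaperone or a gene of degradation, most of them chaperones, so the groups overlap with the roles. *Jchain* was among the 14 higher in monocytes without an element.

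*Xbp1* was lower in NZB than in NZW in all 11 classes in which it was tested, and passed the test in 6. The classes came from the same mice, and the share of all genes with the same sign in every class is not given. Beside monocytes and GMP these were mature B cells (-1.54 ± 0.37), erythroid cells (-1.07 ± 0.24), pDC (-0.86 ± 0.15) and immature neutrophils (-0.57 ± 0.13). In mature B cells it stood at 37.0, 25.6 and 28.2 CPM in NZB, 90.6, 93.1 and 109 in NZW, and 46.5, 96.7 and 87.7 in NZBWF1. Each NZB mouse was below each mouse of the other strains there, but the NZB levels rest on 7, 3 and 5 UMIs. In plasma cells, where each NZW mouse tested had 10 cells, the difference did not pass the test.

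*Mzb1* differed in direction between classes. In mature B cells it was higher in NZB, at 925, 792 and 936 CPM in NZB, 364, 451 and 333 in NZW, and 403, 534 and 440.2 in NZBWF1 (1.32 ± 0.16, edgeR, adjusted p = 1.2e-06). In pDC it was lower in NZB (-1.12 ± 0.19, adjusted p = 5.2e-06 by edgeR), at the levels given above. In immature neutrophils it was lower as well (-1.46 ± 0.49), at 0.755 to 2.55 CPM in NZB and 3.07 to 6.15 in NZW, and 1.05% of these cells held a UMI. Thinned to 1000 UMIs, the share with *Mzb1* was 0.402% (0.281% to 0.555%) against 0.159% in erythroid cells (0.0328% to 0.464%). These intervals are for cells pooled over mice and hold counting error only, not the spread between mice. Whether the classes differ in this share was not tested. In the barcodes of free RNA *Mzb1* stood at 83.3 to 84.6 CPM in NZB, 94.2 to 183 in NZW and 149 to 186 in NZBWF1. Free RNA was estimated at 0.793% to 1.49% of UMIs in NZB, 1.46% to 4.76% in NZW and 0.63% to 2.08% in NZBWF1. The clusters that hold most cells of these classes also differed by strain: mature B cells of NZB lay mostly in another cluster than those of the other 2 strains, and most pDC lay in 1 cluster in NZB and NZBWF1 mice and in another in NZW mice.

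In pDC 5 further genes passed, all higher in NZB: *Dnajc3* (0.74 ± 0.15), *Pdia3* (0.53 ± 0.14), *Hspa5* (0.42 ± 0.12), *Calr* (0.44 ± 0.13) and *Hsp90b1* (0.34 ± 0.10), which made 7 of 42 where 7.93% of all genes differed. DESeq2 called 3 members, and cells of at least 2000 UMIs and 1000 genes gave 0. In mature B cells *Hsp90b1* (0.64 ± 0.17) was called beside them, of 40 tested and with 3.86% of all genes. B-cell precursors gave *Pdia3* (0.64 ± 0.16), *Manf* (0.56 ± 0.14) and *Calr* (0.49 ± 0.13), of 42 tested and with 2.18% of all genes. Erythroid cells gave *Calr* (0.47 ± 0.11), *Sdf2l1* (0.52 ± 0.13) and *Pdia3* (0.33 ± 0.09) beside *Xbp1*, of 40 tested and with 8.2% of all genes, a share near that of the members.

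In immature neutrophils 7 of 40 genes were higher in NZB and 2 lower, where 14.8% of all genes differed. They were *Ssr1* of the translocon-associated complex (0.80 ± 0.12), *Hsp90b1* (0.56 ± 0.11), *Derl2* (0.50 ± 0.14), *Dnajc3* (0.48 ± 0.13), *Ddit3* (1.04 ± 0.31), *Dnajb9* (0.59 ± 0.18) and *Ssr3* (0.40 ± 0.13). *Ssr1* stood at 58.8, 61.3 and 55.5 CPM in NZB, 33.7, 41.1 and 37.2 in NZW, and 48.2, 46.2 and 46.5 in NZBWF1. *Ssr1* was also the 1 gene called in mature neutrophils (0.96 ± 0.26), of 35 tested and with 8.84% of all genes. In both classes it was higher in NZB.

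In plasma cells, where the genes together held the largest share of UMIs, strains were hardly told apart. Of 42 genes tested in NZB against NZW, *Atf6* passed (-1.79 ± 0.46, edgeR, adjusted p = 0.045), at 15.5, 43.3 and 24.9 CPM in NZB, 185 and 96.6 in NZW, and 54.7, 36.2 and 42.0 in NZBWF1, where 1.3% of all genes passed. These levels rest on 119 UMIs in all. In NZBWF1 plasma cells 0 members passed by edgeR against NZB, NZW or the mean of both, where 0.591%, 0.355% and 0.355% of all genes passed and 6, 5 and 5 members had an unadjusted p under 0.05. In counts simulated for NZBWF1 against the mean of its parents, 43 of 132 genes that were changed 2-fold were recovered in plasma cells (1692 genes tested), 63 of 200 in mature B cells (5855 genes tested) and 33 of 200 in pDC (6409 genes tested), so that a 2-fold difference was often not detectable in any of these 3 classes.

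**Figure D5:**
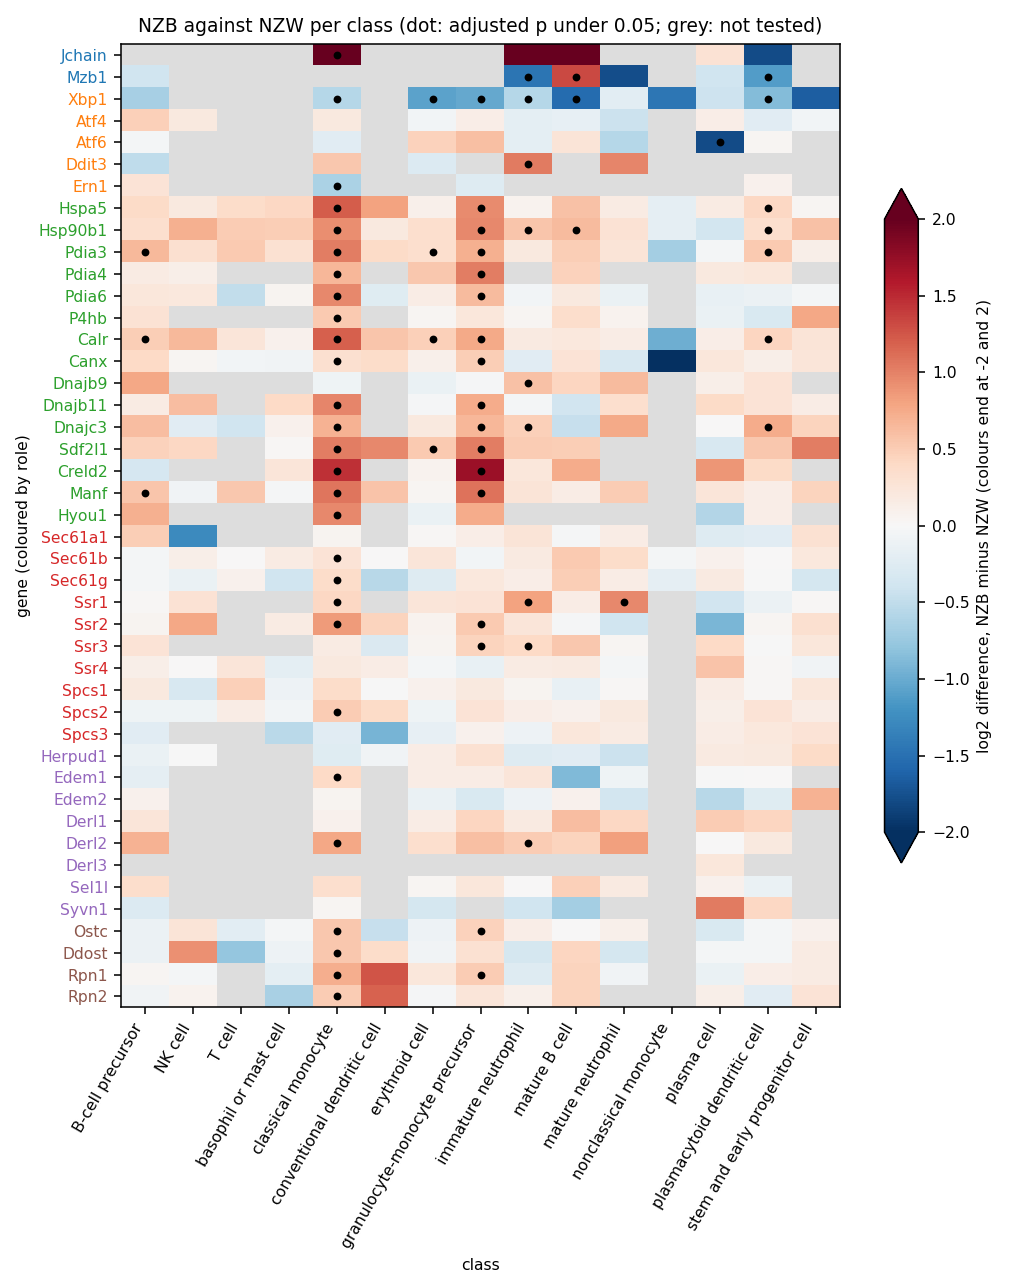
Log2 difference of NZB against NZW for each of the 44 genes (rows, coloured by role) in each class (columns), with colours ending at -2 and 2, dots for an adjusted p under 0.05, and grey for genes that were not tested. Dots gather among the chaperones of classical monocytes and GMP, and the row of *Xbp1* is blue in all 11 classes in which it was tested.

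For genes called between the parents, the position of NZBWF1 was read as a description, since a wide parental gap favours a value within it, and the share over all called genes was not computed. For the 28 genes called between the parents in monocytes, the mean of NZBWF1 was between those of NZB and NZW for 24, at a median of 0.309 of the way from NZW to NZB, and for the 17 of GMP it was between for all 17, at 0.338. In pDC it was between for all 7 and in immature neutrophils for 6 of 9, with the lowest at -0.46. Against NZB, 20 of 42 genes were lower in NZBWF1 monocytes and 0 higher (16.5% of all genes differed, 7.97% higher and 8.52% lower), and 8 of 39 were lower in GMP (1.01% of all genes differed). In monocytes the 10 of smallest p were *Pdia6* (-0.87 ± 0.10), *Pdia3* (-0.86 ± 0.10), *Calr* (-0.79 ± 0.11), *Ssr2* (-0.75 ± 0.11), *Hspa5* (-0.75 ± 0.11), *Sdf2l1* (-0.83 ± 0.12), *Hsp90b1* (-0.65 ± 0.10), *Manf* (-0.77 ± 0.11), *Dnajb11* (-0.73 ± 0.12) and *Ostc* (-0.49 ± 0.10). In GMP they were *Creld2* (-1.40 ± 0.17), *Hsp90b1* (-0.72 ± 0.12), *Manf* (-0.72 ± 0.13), *Dnajc3* (-0.61 ± 0.14), *Pdia4* (-0.66 ± 0.16), *Pdia3* (-0.49 ± 0.12), *Sdf2l1* (-0.59 ± 0.15) and *Hspa5* (-0.47 ± 0.13). In immature neutrophils *Hsp90b1* (-0.44 ± 0.11), *Ssr1* (-0.49 ± 0.12), *Derl2* (-0.54 ± 0.14), *Manf* (-0.47 ± 0.13), *Ddit3* (-1.14 ± 0.32) and *Pdia3* (-0.41 ± 0.12) were lower in NZBWF1 than in NZB and *Mzb1* (2.13 ± 0.46) was higher, where 6.71% of all genes differed. In pDC *Mzb1* (1.0 ± 0.17) and *Xbp1* (0.76 ± 0.14) were higher (2.73% of all genes), and in mature B cells *Mzb1* (-1.10 ± 0.16) was lower (3.39%). Single genes were called in erythroid cells (*Xbp1*, 1.13 ± 0.26, with 1.46% of all genes), mature neutrophils (*Ssr1*, -0.90 ± 0.25, with 3.78%) and basophils or mast cells (*Hsp90b1*, -1.31 ± 0.28, with 0.873%). Against NZW, *Hspa5* (0.45 ± 0.11) and *Jchain* (2.88 ± 0.49) were higher in NZBWF1 monocytes, where 1.2% of all genes differed.

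Against the mean of both parents 5 tests passed, with 0 passing in cells of at least 2000 UMIs and 1000 genes, 0 in dividing cells, and 1 to 9 when a mouse was left out (9 without NZBWF1 replicate 1, 1 without replicate 2, 2 without replicate 3). In monocytes, where 2.47% of all genes passed, *Pdia3* (-0.34 ± 0.09) and *Pdia6* (-0.39 ± 0.09) were lower in NZBWF1 and *Jchain* (1.79 ± 0.37) higher. *Jchain* in monocytes stood at 4.65, 7.83 and 10.5 CPM in NZB, 0.757, 2.31 and 1.74 in NZW, and 4.71, 12.3 and 18.1 in NZBWF1, and 1.85% of the cells held a UMI. Thinned to 1000 UMIs, the share of cells with *Jchain* was 0.788% in monocytes (exact 95% binomial interval 0.558% to 1.08%) and 0.371% in erythroid cells (0.149% to 0.764%). These intervals are for cells pooled over mice and hold counting error only, so they do not test whether the classes differ. In the barcodes of free RNA *Jchain* stood at 297 to 996 CPM in NZB, 127 to 374 in NZW and 1088 to 1453 in NZBWF1. With free RNA subtracted *Jchain* had no test in monocytes, so the part of free RNA in this difference was not tested. *Mzb1* was higher in immature neutrophils (1.40 ± 0.34, with 0.631% of all genes), and *Hsp90b1* was lower in basophils or mast cells (-1.07 ± 0.25, with 0.728% of all genes), a class of 138 cells.

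Whether strains differ more in plasma cells than in the other classes was tested as an interaction. Taking NZBWF1 against the parental mean, 11 of 44 genes passed, where 1.52% of all genes passed, and all 11 had the higher difference in plasma cells: *Sel1l* (0.99 ± 0.17), *Manf* (0.85 ± 0.18), *Spcs1* (0.63 ± 0.14), *Edem1* (0.70 ± 0.17), *Sdf2l1* (0.80 ± 0.21), *Xbp1* (0.69 ± 0.18), *Ostc* (0.69 ± 0.19), *Dnajb11* (0.72 ± 0.20), *Spcs2* (0.56 ± 0.16), *Hspa5* (0.70 ± 0.19) and *Creld2* (0.86 ± 0.24). The median of the 44 was 0.45 and that of all genes 0.52, so the members did not lie above the shift of the whole table. With the size factors of DESeq2 in edgeR, with DESeq2 itself, and with no scaling factor, 0 genes passed, and without NZBWF1 replicate 3 also 0. For NZB against NZW *Ssr4* passed (0.93 ± 0.19, with 0.639% of all genes), where the median of all genes was 0.53, and the call was lost with the size factors of DESeq2 in edgeR, with no scaling factor, with no filter on low counts, with limits of 2000 UMIs and 1000 genes, and without NZB replicate 2 or NZW replicate 2.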

How the data were processed

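UMI counts per gene and cell were deposited by the authors as matrices; per the labels and the study's methods, reads of the 10x 3' v3.1 kit were handled with bcl2fastq 2.20 and Cell Ranger 3.1.0 on mm10. Cells were assigned to libraries by the number that ends each barcode, read as the place of the library in the deposited aggregation list, and no source used here says whether libraries were brought to equal read depth when they were joined. Cells with at least 1000 UMIs, 500 genes and at most 10% mitochondrial UMIs were kept. Doublets were then removed by score at 0.8% per 1000 barcodes that passed these limits (Python 3.11.15, scanpy 1.11.5). Libraries held 9903578 to 22522507 UMIs. Counts were summed per class and mouse and tested with edgeR 4.0.16 (R 4.3.3; quasi-likelihood, TMM, Benjamini-Hochberg over all genes tested), with the mouse as a block between classes and per class between strains; NZBWF1 was also compared with the mean of its parents, as the study did. The mice are separate animals. Values in every mouse were fixed for 10 genes; otherwise the text names the 10 largest called members of a class comparison, every called member of a strain comparison (the 10 of smallest p where there were more), and 3 other pathway genes in each direction. The 44 members and all lists were chosen with earlier results of these data known. Tests were tried on simulated counts. Alternatives, DESeq2 1.42.0 among them, are given at the end; those on dividing cells and on UMI totals with no scaling factor were added after the data were seen. Replicate numbers were not used as a block between strains. Macrophages and megakaryocytes were not tested.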

Additional observations from a re-analysis of the deposited data

Results flagged for a closer look

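In plasma cells, 1 mouse stood apart from the other 7 for 3 genes, in each case NZW replicate 2, with 10 plasma cells: *Mzb1* at 4561, *Hsp90b1* at 8213 and *Calr* at 1464 CPM. In pDC, NZW replicate 3 stood apart for *Jchain*, at 95.7 CPM. The test of the gap to the nearest mouse was run on 20 values, and chance marks about 1 in 20.

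The difference of NZBWF1 from the mean of its parents was larger in plasma cells than in the other classes for 11 genes, by an interaction term on the log2 scale: *Sel1l* 0.99, *Creld2* 0.86, *Manf* 0.85, *Sdf2l1* 0.80, *Dnajb11* 0.72, *Edem1* 0.70, *Hspa5* 0.70, *Xbp1* 0.69, *Ostc* 0.69, *Spcs1* 0.63 and *Spcs2* 0.56. The median of all genes was 0.52 in the same contrast and -0.10 with no scaling factor. The difference between NZB and NZW was larger in plasma cells for *Ssr4*, by 0.93, where the median of all genes was 0.53.

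*Mzb1* differed between NZB and NZW by 1.32 in mature B cells, -1.12 in pDC and -1.46 in immature neutrophils. Of the immature neutrophils, 1.05% held a UMI of it, and its level in free RNA also differed between these strains. The mice of both strains did not overlap in any of these classes, and the difference between the classes was not tested.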

How the results depend on the processing

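Between classes the counts of members called, higher and lower added together, stayed within 1.5 times the main count under every alternative run, but their directions did not. With no scaling factor, plasma cells against the other classes went from 44 higher and 0 lower to 36 and 5, against mature B cells from 43 and 0 to 37 and 5, and against pDC from 42 and 0 to 26 and 12, and pDC against the other classes went from 28 and 2 to 37 and 0. Against conventional dendritic cells pDC went from 16 and 0 to 13 and 1. The share of all genes called with no scaling factor is not given for these comparisons. In the first 4 of these comparisons the log2 difference of 7, 5, 14 and 8 of the 44 members changed sign, and in the last that of 1. Of 3696 alternative values of 163 named results, 3222 kept direction and side of the threshold, 448 kept direction and lost the call, 11 kept direction and gained it, and 15 reversed; the cause was not tested. Reversed with no scaling factor were, in plasma cells against other classes, *Atf4* (-0.34), *P4hb* (-0.41), *Derl2* (-0.51), *Ddit3* (-0.66) and *Canx* (-0.86); against mature B cells, *Ddit3* (-1.08, and -0.29 to 0.99 leaving out a mouse, with -0.29 without NZBWF1 replicate 3); against pDC, *Ern1* (-1.46) and *Canx* (-1.57); in pDC against other classes, *Atf4* (0.24), *Ddit3* (0.04) and *Rpn1* (0.04); and in the interaction, *Spcs1* (-0.0) and *Spcs2* (-0.07). *Mzb1* in pDC of NZBWF1 against NZB had the reverse sign when only dividing cells were read (-4.48), a value far from passing the test. Without immunoglobulin genes the plasma cell share was 19.9%. The interaction of NZBWF1 (11 members) gave 0 with RLE size factors, DESeq2 or no scaling factor, 4 with no filter, 2 without immunoglobulin genes, 2 with limits of 2000 UMIs and 1000 genes, 1 in the Leiden cluster, and 0 to 7 leaving out a mouse, with 0 without NZBWF1 replicate 3. That of NZB against NZW (1) gave 0 with no filter or stricter limits, 2 with DESeq2 or without immunoglobulin genes, 4 with no scaling factor, and 0 to 3 leaving out a mouse. NZBWF1 against the mean of its parents (5) gave 3 with DESeq2, 3 with free RNA subtracted, 0 with stricter limits, 0 in dividing cells, 1 without them, and 1 to 9 leaving out a mouse (9 without NZBWF1 replicate 1, 1 without replicate 2, 2 without replicate 3). NZBWF1 against NZB (41) gave 27 with DESeq2, 22 with stricter limits, 20 in dividing cells, 19 without them, and 24 to 40 leaving out a mouse (24 without NZB replicate 2, 27 without NZBWF1 replicate 3). NZBWF1 against NZW (2) gave 8 with no filter, 1 with free RNA subtracted, 1 with stricter limits, 0 without dividing cells, 4 with no scaling factor, and 1 to 11 leaving out a mouse (11 without NZBWF1 replicate 1, 4 to 6 without NZB replicate 1, NZB replicate 2 or NZW replicate 3, and 1 without NZBWF1 replicate 2, NZBWF1 replicate 3 or NZW replicate 1). NZB against NZW (73) gave 47 in dividing cells and 37 without them (among monocytes, cells with a GMP gene were left out as well); monocytes (28) 17 and 15; GMP (17) 8 without them. In pDC (7) DESeq2 gave 3, stricter limits 0, 1 more marker 4, the Leiden cluster 3, dividing cells 0, and leaving out a mouse 3 to 7 (3 without NZW replicate 3, 4 without NZB replicate 2). With the replicate number as a block the counts were 78 for NZB against NZW, 43 for NZBWF1 against NZB, 4 against NZW and 6 against the mean. Deviations of same-numbered mice were compared in the classes with all 9 mice, so not in plasma cells. In none of these classes did all pairs correlate above 0.1. In mature neutrophils the pairs of replicates 1 and 2 did (0.244 to 0.367) and those of replicate 3 did not (0.0155 to 0.0238). The pairs of replicate 1 in NK cells (0.102 to 0.203) and of replicate 2 in immature neutrophils (0.119 to 0.147) did as well. In simulated counts most genes changed 2-fold between strains were not recovered in plasma cells, mature B cells or pDC.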
